A study of Homo sapiens with 2 samples.

Results

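Transcripts of 10 genes that restrain or report ERK signalling were examined in C4-2B cells given vehicle or (R)-9b, a small-molecule inhibitor of the tyrosine kinase ACK1. The genes were DUSP4, DUSP5, DUSP6, SPRY1, SPRY2, SPRY4, SPRED1, SPRED2, ETV4 and ETV5. They were picked by name as a readout of ERK output, and all 10 were found by symbol among the 60671 distinct genes of the count table. C4-2B is an established human line of castration-resistant prostate cancer descended from LNCaP. The vehicle cells and the (R)-9b cells each gave 1 poly-A library, and per the labels the inhibitor was used at 1 µM overnight. The model is therefore 1 cell line with a single library per condition. How many cultures each library came from is not stated, the labels name no engineered allele, and the vehicle is not named there.

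The ERK cascade passes a signal from growth factor receptors through the adaptors GRB2 and SOS to RAS, the RAF kinases, the MEK kinases and the ERK kinases. Active ERK switches on genes whose products dampen the same cascade. Among these, DUSP4, DUSP5 and DUSP6 are phosphatases that remove phosphate from MAP kinases, Sprouty and Spred proteins act between the receptors and RAF, and ETV4 and ETV5 are ETS transcription factors of the PEA3 group whose mRNA follows ERK activity in many cell types. In prostate epithelium Sprouty proteins are known as brakes on FGF signalling, and ETS factors are known for their rearrangement in prostate cancer.

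The vehicle library held 65207444 counts and the (R)-9b library 57653965 counts. Ratios are (R)-9b over vehicle after TMM scaling, a correction for library size and composition, and each has an exact (Clopper-Pearson) 95% interval. These intervals cover counting error only, with every count taken as independent. Among low counts 72.2% were even in vehicle and 70.3% in (R)-9b, as when both mates of a fragment are counted. Where mates were both counted, the intervals are too narrow even for counting error. This holds also for the calls and for the shares over all genes, which were not computed with halved counts. With 1 library per condition the spread between cultures was not measured, so each ratio compares these libraries and not the treatments, and no p-value is given. A gene was called beyond 2-fold when its whole interval lay above a ratio of 2 or below 0.5. Mitochondrially encoded genes took 1.49% of the counts in vehicle and 9.54% in (R)-9b. With those genes set aside, the scaling moved every log2 ratio by 0.00051. Total counts alone moved every log2 ratio by -0.060. Of 11 prostate epithelial markers all were abundant in both libraries, with summed levels, in TMM-scaled CPM (a count relative to the scaled library size), of 6289 for vehicle against 11416 for (R)-9b. Much of that difference came from KLK3, at 2202 and 5273, which was called higher, as were KLK2 and SLC45A3. FOLH1 did not differ beyond counting error, and STEAP2 and KRT18 were slightly lower, at log2 ratios of -0.07 and -0.09. The labels name breast cancer as the cell type, whereas 4 breast markers summed to 0.691 and 0.213 CPM, with SCGB2A2 at 0 in both libraries. The 5 immune markers summed to 0.285 and 0.584 CPM, with PTPRC at 0. The 4 fibroblast markers, almost all COL1A1, summed to 17.3 and 36.5 CPM, while DCN had 0 and 2 counts. The 3 endothelial markers, almost all VWF, summed to 11.7 and 7.65 CPM, and the 3 basal markers to 0.526 and 0.319 CPM with TP63 at 0. The part of these differences in the feedback genes was not tested.

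The feedback genes did not move as a block. SPRY4 was about 5 times as abundant in the (R)-9b library, whereas DUSP4, DUSP5, SPRY1, SPRY2 and SPRED2 had ratios between 0.572 and 0.797. In RNA from whole cultures, fewer cells that express a gene and less of its RNA per cell cannot be told apart. SPRED1 did not differ beyond counting error, and DUSP6, ETV4 and ETV5 were detected by few reads. All 10 genes passed the minimum of 10 counts over both libraries. SPRY4 was the 1 gene of the 10 called higher, against 4.2% of the 23446 genes tested, and 0 of 10 were called lower, against 3.44%. The whole interval lay above a ratio of 1 for 2 of the 10, SPRY4 and ETV4, against 29.8% of all genes tested, and below 1 for 5 of the 10, against 31.1%. By the point ratio alone, 2 of the 10 (SPRY4 and DUSP6) were above 2, against 11.5% of all genes, and 0 were below 0.5, against 9.53%. The median log2 ratio of the 10 was -0.10, and that of all genes tested was -0.0049. Summed over the 10 genes, the counts were 8395 in vehicle and 5700 in (R)-9b, a log2 ratio of -0.32 (95% interval -0.37 to -0.27). This sum mostly follows DUSP4, SPRY1 and SPRED2, which held 84.8% of it in vehicle and 74.5% in (R)-9b.

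**Figure D1:**
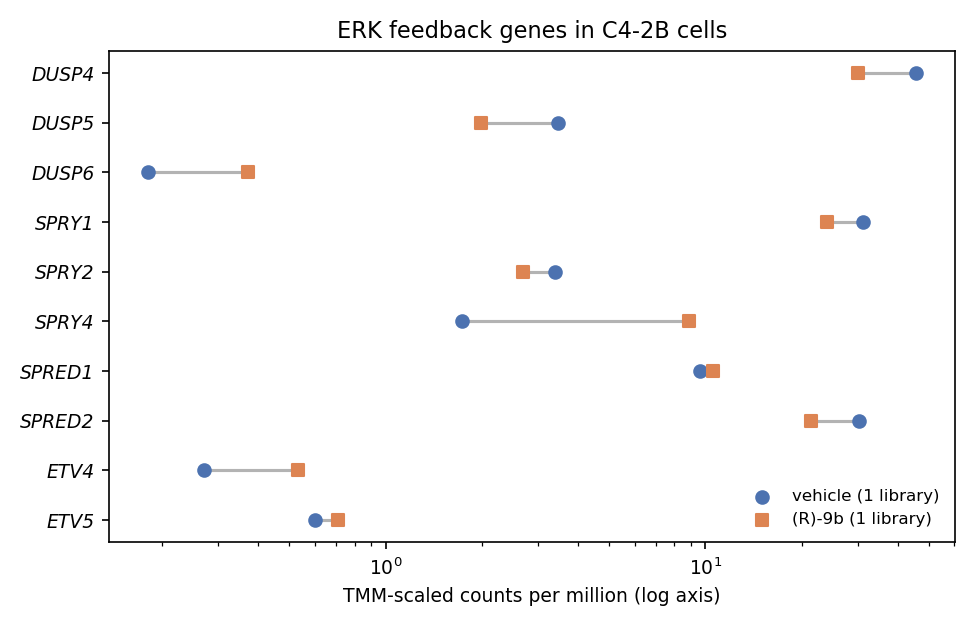
Each row is a feedback gene, with its level in the vehicle library (circle) and the (R)-9b library (square) as TMM-scaled CPM on a log axis. SPRY4 moves from 1.73 to 8.86 CPM, DUSP4 from 45.6 to 29.9 CPM, and DUSP6, ETV4 and ETV5 lie below 1 CPM in both libraries.

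The phosphatases differed widely in level, and DUSP4 and DUSP5 were lower in (R)-9b. DUSP4, a nuclear phosphatase induced by ERK that also acts on other MAP kinases, had 3037 counts in vehicle and 1689 in (R)-9b. These correspond to 45.6 and 29.9 CPM, a log2 ratio of -0.61 (95% interval -0.70 to -0.52). DUSP5, a nuclear phosphatase selective for ERK, had 231 and 112 counts, or 3.47 and 1.98 CPM. Its log2 ratio of -0.81 (-1.15 to -0.47) was the lowest of the 10 genes. DUSP6, the cytoplasmic ERK phosphatase that is often read as a marker of ERK activity, had 12 counts in vehicle and 21 in (R)-9b. Its point estimate was higher, at a log2 ratio of 1.05, but the interval of -0.04 to 2.20 includes 0, so that no difference could be detected at this depth. The transcript table gave 16 and 15 estimated counts for DUSP6, a log2 ratio of 0.16, and scaling by total counts put its ratio just below 2, at a log2 ratio of 0.98. DUSP4 made up 92.6% of the phosphatase reads in vehicle (exact 95% interval 91.6% to 93.5%) and 92.7% in (R)-9b (91.4% to 93.9%). DUSP5 made up 7.04% (6.19% to 7.97%) and 6.15% (5.09% to 7.35%). DUSP6 made up 0.366% (0.189% to 0.638%) and 1.15% (0.715% to 1.76%). These shares need no scaling between libraries. The intervals overlap for DUSP4 and DUSP5. Those of DUSP6 do not, but they lie close together, at 0.638% and 0.715%, and rest on 12 and 21 counts. A share also rises when the other phosphatases fall. Shares with the counts halved, as for fragments whose mates are both counted, were not computed, so no shift in the DUSP6 share is claimed. With halved counts the interval of the DUSP6 log2 ratio was -0.54 to 2.78.

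DUSP4 lies on chromosome 8 from 29333064 to 29350668 on the minus strand (GENCODE 29, GRCh38). DUSP5 lies on chromosome 10 from 110497838 to 110511544 on the plus strand, and DUSP6 on chromosome 12 from 89347232 to 89353271 on the minus strand. An antisense gene, AC024909.2, shares 1875 exon bases with DUSP6 and had 2 counts in each library. Counting used only unambiguous reads, and the strand setting is not given in the sources used here, so reads in the shared part may have been left out of the DUSP6 count.

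The Sprouty genes, which encode membrane-associated inhibitors of receptor signalling to RAS and RAF, went in opposite directions. SPRY1 had 2063 counts in vehicle and 1351 in (R)-9b, or 31.0 and 23.9 CPM, a log2 ratio of -0.37 (95% interval -0.47 to -0.27). SPRY2 had 225 and 152 counts, or 3.38 and 2.69 CPM, a log2 ratio of -0.33 (-0.63 to -0.02). The upper end of this interval is close to 0, and with the counts halved, as for fragments whose mates are both counted, it reached 0.10. SPRY4 had 115 counts in vehicle and 500 in (R)-9b, or 1.73 and 8.86 CPM. Its ratio was 5.13 (95% interval 4.18 to 6.34), a log2 ratio of 2.36 (2.06 to 2.66). Only 2.96% of all genes tested had a higher point ratio. SPRY4 took 4.79% of the Sprouty reads in vehicle (exact 95% interval 3.97% to 5.72%) and 25.0% in (R)-9b (23.1% to 26.9%), a shift that does not rest on the scaling. SPRY1 took 85.9% and 67.4% of the same reads. SPRY1 lies on chromosome 4 from 123396795 to 123403760 on the plus strand, SPRY2 on chromosome 13 from 80335976 to 80340951 on the minus strand, and SPRY4 on chromosome 5 from 142310427 to 142326455 on the minus strand. An opposite-strand gene, SPRY4-AS1, overlaps the SPRY4 locus but shares 0 exon bases with it and had 0 counts in both libraries.

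**Figure D2:**
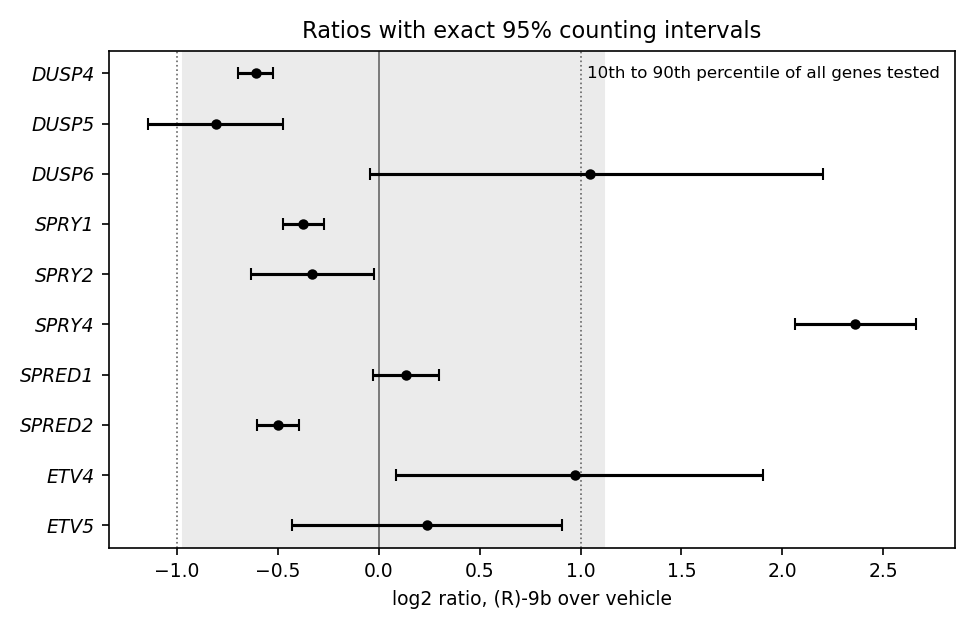
Points are log2 ratios of (R)-9b to vehicle for the 10 feedback genes and bars are exact 95% counting intervals. The shaded band spans the 10th to 90th percentile of all genes tested (-0.97 to 1.11), the solid line is 0 and the dotted lines are -1 and 1. SPRY4 at 2.36 is the only gene of the 10 whose whole interval lies to the right of the band.

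The transcript table, a separate quantification of the same libraries, gave 50 estimated counts for SPRY4 in vehicle and 175 in (R)-9b. The log2 ratio from these was 2.06 (95% interval 1.60 to 2.54). Most came from SPRY4-202, a protein-coding transcript of 2 exons, with 37.7 estimated counts in vehicle and 154 in (R)-9b. SPRY4-201, which is also protein-coding, had 12.3 and 9.26. SPRY4-202 made up 75.4% of the estimated SPRY4 counts in vehicle and 87.8% in (R)-9b. For SPRY1 the transcripts were spread more evenly. SPRY1-208 had 245 estimated counts in vehicle and 230 in (R)-9b, whereas SPRY1-209 had 268 and 87.4. SPRY1-209, which GENCODE 29 does not list, made up 34.7% of the SPRY1 estimate in vehicle and 17.3% in (R)-9b. Transcripts of a gene share exons, so reads are divided among them by a model, and this error is not in the values given. SPRY2 had 1 main transcript, SPRY2-202, with 88 and 60.1 estimated counts.

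**Figure D3:**
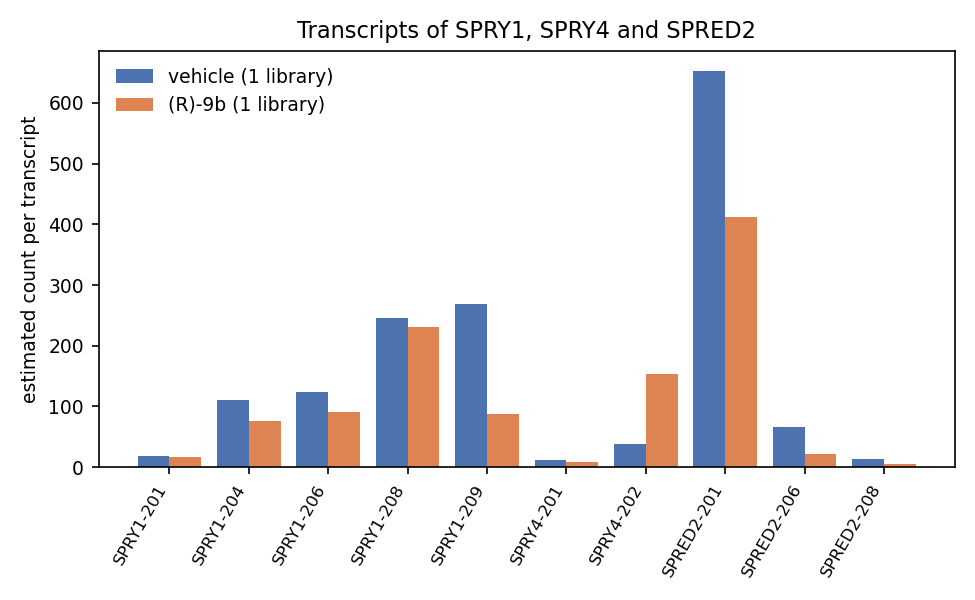
Bars show the estimated count of each transcript of SPRY1, SPRY4 and SPRED2 with at least 10 estimated counts over both libraries, in vehicle and in (R)-9b, on an axis that starts at 0. These counts are not scaled, and the estimated counts of all transcripts summed to 21829533 in vehicle and 19176870 in (R)-9b. SPRY4-202 is higher in (R)-9b, at 154 against 37.7, while every other transcript shown is lower before scaling.

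The Spred genes encode relatives of Sprouty that bring neurofibromin, the RAS-inactivating product of NF1, to the membrane. SPRED1 had 639 counts in vehicle and 596 in (R)-9b, or 9.60 and 10.6 CPM. Its log2 ratio of 0.14 (95% interval -0.03 to 0.30) did not differ from 0 beyond counting error. The upper end is a ratio of 1.23, a limit for counting error alone, and with halved counts it reached a log2 ratio of 0.37. With scaling by the upper quartile the whole SPRED1 interval lay above 0. SPRED2 had 2015 and 1209 counts, or 30.3 and 21.4 CPM, a log2 ratio of -0.50 (-0.60 to -0.40). SPRED2 made up 75.9% of the Spred reads in vehicle (exact 95% interval 74.2% to 77.5%) and 67.0% in (R)-9b (64.8% to 69.1%). SPRED1 lies on chromosome 15 from 38252326 to 38357249 on the plus strand and SPRED2 on chromosome 2 from 65310851 to 65432637 on the minus strand.

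SPRED2 has 2 RefSeq starts far apart, and the transcripts near them differed. SPRED2-201 and SPRED2-205, which begin within 500 bases of the distal start, together had 653 estimated counts in vehicle and 414 in (R)-9b, a log2 ratio of -0.41 (95% interval -0.59 to -0.23). SPRED2-206 and SPRED2-208, which begin within 500 bases of the internal start, together had 80.9 and 27.4, a log2 ratio of -1.34 (-2.02 to -0.69). The intervals, computed on rounded estimates, do not overlap. This grouping was made after the values were seen, and the division of reads between overlapping transcripts adds error that was not measured. Both SPRED2 windows are shown because their transcripts differed, and the SPRY4 window because SPRY4 was the gene called higher. Each window is RefSeq sequence of GRCh38.p14 on the minus strand, written 5′ to 3′, with 250 bases before the RefSeq start and 50 after it. Capitals mark matches to TGANTCA, the letters searched for as a loose form of an AP-1 site, where N is any base.
SPRED2 distal window, chr2:65432550-65432849: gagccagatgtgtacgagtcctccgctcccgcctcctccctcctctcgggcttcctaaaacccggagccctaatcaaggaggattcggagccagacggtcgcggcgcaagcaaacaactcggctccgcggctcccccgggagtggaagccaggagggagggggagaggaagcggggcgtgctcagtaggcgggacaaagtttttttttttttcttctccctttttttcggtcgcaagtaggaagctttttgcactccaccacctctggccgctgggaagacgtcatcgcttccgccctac
SPRED2 internal window, chr2:65366729-65367028: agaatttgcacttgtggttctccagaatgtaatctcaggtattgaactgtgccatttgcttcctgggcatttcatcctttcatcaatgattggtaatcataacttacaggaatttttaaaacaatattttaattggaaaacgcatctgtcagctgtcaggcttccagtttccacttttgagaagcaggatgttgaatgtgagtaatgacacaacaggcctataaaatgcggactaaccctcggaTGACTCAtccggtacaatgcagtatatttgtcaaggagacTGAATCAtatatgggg
SPRY4 window, chr5:142324198-142324497: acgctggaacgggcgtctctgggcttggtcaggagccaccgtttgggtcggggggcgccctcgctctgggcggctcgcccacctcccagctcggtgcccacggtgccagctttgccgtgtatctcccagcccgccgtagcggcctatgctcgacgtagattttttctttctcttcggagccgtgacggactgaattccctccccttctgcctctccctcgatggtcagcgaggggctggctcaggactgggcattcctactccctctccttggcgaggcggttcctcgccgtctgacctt
The RefSeq start of SPRY4 lies 793 bases downstream of the start that GENCODE gives SPRY4-202, so this window does not reach the start of that transcript. GENCODE starts SPRED2-201 422 bases downstream of the distal RefSeq start, and SPRED2-206 128 bases downstream of the internal one. These transcripts held most of the estimated counts near each start. Both SPRED2 windows end 50 bases after the RefSeq start, so neither reaches the start of its main transcript.

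The promoter table held 10 windows for 6 of the 10 genes (DUSP6, SPRY1, SPRY2, SPRY4, SPRED1 and SPRED2). As for SPRY4 and SPRED2, the windows of DUSP6, SPRED1 and SPRY2 do not reach the start of the main transcript. DUSP6-201 and SPRED1-201 start 770 and 510 bases upstream of their RefSeq starts. SPRY2-202 starts 175 bases downstream of the nearest one. They were searched on both strands for letters tied to factors that act under ERK. TGANTCA occurred in 1 of the 10 windows, the internal one of SPRED2, at positions 245 and 285 counted from its first base, and in 7.71% of all 35116 windows. TGAATGAA and TGAATGGA, recognised by the repressor capicua, occurred in 0 of the 10 windows and in 1.65% and 1.03% of all windows. Other forms of the capicua letters were not searched for. Whether these windows, that of DUSP6 included, hold such forms was therefore not tested, and an absence of capicua letters is not claimed. The ETS letters CCGGAAGT occurred in 0 of the 10 and 4.14% of all, and the CRE letters TGACGTCA in 0 of the 10 and 1.85% of all. A match is a description of these letters and not a site in use.

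The ETS factors were expressed at low levels. ETV4 had 18 counts in vehicle and 30 in (R)-9b, or 0.270 and 0.531 CPM, a log2 ratio of 0.97 (95% interval 0.08 to 1.90). With the counts halved the interval was -0.31 to 2.35 and included 0. ETV5 had 40 counts in each library, or 0.601 and 0.708 CPM, a log2 ratio of 0.24 (-0.43 to 0.91). ETV1, the other PEA3 factor, had 0 counts in both libraries, which allows up to 3 counts in each. LNCaP, the parental line, is known for high ETV1 expression from a rearrangement, so whether this 0 is absent RNA or a fault of counting or annotation cannot be told apart here. ETV4 lies on chromosome 17 from 43527844 to 43579620 and ETV5 on chromosome 3 from 186046308 to 186110318, both on the minus strand. DHX8, on the opposite strand, shares 68 exon bases with ETV4 and had 4491 and 3181 counts, more than 100 times those of ETV4. DGKG shares 164 exon bases with ETV5 on the same strand and had 16 and 8 counts, and ETV5-AS1 had 0 in both. The transcript table gave 4 and 7 estimated counts for ETV4 and 3 and 0 for ETV5, far fewer than the gene counts.

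Compared per length, as TMM-scaled CPM per kilobase of annotated exon, SPRY1 was the most abundant of the 10 in both libraries, at 7.82 in vehicle and 6.04 in (R)-9b. DUSP4 at 6.29 and SPRED2 at 5.87 followed in vehicle. In (R)-9b they were at 4.12 and 4.15, respectively. DUSP5 at 1.33, SPRED1 at 1.16 and SPRY2 at 1.11 formed a middle group in vehicle. SPRY4 was below them at 0.263 in vehicle and reached 1.35 in (R)-9b, next to SPRED1 at 1.28 and SPRY2 at 0.886, whereas DUSP5 was then at 0.759. ETV5, ETV4 and DUSP6 were the lowest in both libraries, at 0.0389 to 0.104 in vehicle and 0.0803 to 0.147 in (R)-9b. Exon lengths come from all annotated transcripts of a gene, so levels of genes whose long exons go unused are understated.

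The rest of the pathway was described with lists of genes upstream and downstream of ERK. ACK1 itself, encoded by TNK2, had 6946 counts in vehicle and 5292 in (R)-9b, a log2 ratio of -0.15 (95% interval -0.21 to -0.10). Of 24 growth factor ligands, 14 passed the minimum count, 0 were called higher and 3 lower, with a median log2 ratio of -0.45. For this and the following lists, the shares over all genes tested were 4.2% called higher and 3.44% called lower, with a median of -0.0049. EGF, the founding ligand of the EGF receptor, had 1150 and 301 counts (log2 ratio -1.70), KITLG, the ligand of KIT, had 261 and 79 (-1.49), and NRG3, a ligand of ERBB4, had 51 and 4 (-3.43). Of 9 receptors past the minimum, 1 was called higher, 0 lower, with a median of 0.30. That gene was FGFR3, with 908 and 2119 counts (log2 ratio 1.46). FGFR1 had a log2 ratio of 1.11 (95% interval 0.93 to 1.28), ERBB2 of 0.45, ERBB3 of -0.08 and EGFR of -0.21.

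The cascade from adaptors to kinases had 26 genes past the minimum, of which 0 were called higher and 1 lower, with a median log2 ratio of -0.16. GAB2, a docking adaptor, had 663 and 199 counts (log2 ratio -1.50). Of its 10 kinases, 8 had an interval below 0 and 1 above, against 31.1% and 29.8% of all genes tested. MAPK3, which encodes an ERK kinase, had a log2 ratio of -0.14, MAP2K1 and MAP2K2, the genes of the MEK kinases, of -0.18 and -0.39, and BRAF, which encodes a RAF kinase, of -0.61. SOS1 was at -0.04 (95% interval -0.16 to 0.08) and NRAS at 0.07.

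Other negative regulators lay in both directions. All 26 passed the minimum count, 2 were called higher and 1 lower, the interval lay above 0 for 11 and below 0 for 10, and the median log2 ratio was 0.05. DUSP2, another nuclear phosphatase of the same family, had 2178 counts in vehicle and 8096 in (R)-9b, a log2 ratio of 2.13 (95% interval 2.06 to 2.20). RASAL1, a RAS GTPase-activating protein, had 12 and 120 counts (3.56, 2.70 to 4.55). CBLB, a ubiquitin ligase that downregulates receptors, had 1834 and 462 counts (-1.75). DUSP1, a broad MAP kinase phosphatase, had 2130 and 922 counts, a log2 ratio of -0.97 (-1.08 to -0.86). The family relatives SPRY3 and SPRED3 had 33 and 48, and 21 and 42 counts, with log2 ratios of 0.78 and 1.24. ERRFI1, an inhibitor of EGFR family kinases, was at -0.37, IL17RD, which encodes Sef, at -0.59, and NF1 at -0.56.

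Of 19 other genes induced by ERK, 16 passed the minimum, 2 were called higher and 0 lower, and the median log2 ratio was 0.17. JUNB, an AP-1 subunit, had 4384 and 8570 counts (log2 ratio 1.20), and IER3, an early-response gene, had 11 and 47 (2.33). EGR1 had 55 and 120 counts, a log2 ratio of 1.36 (95% interval 0.89 to 1.85), and FOSL1 had 18 and 15 (-0.03, -1.12 to 1.05). CCND1, which encodes cyclin D1, was at 0.73, and PHLDA1 at -0.24. Capicua represses several of these targets until ERK relieves it. Its gene CIC had 5911 and 4185 counts (log2 ratio -0.26), and that of its partner ATXN1 had 2558 and 734 (-1.56), the 1 gene of the 3 in this complex called lower.

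**Figure D4:**
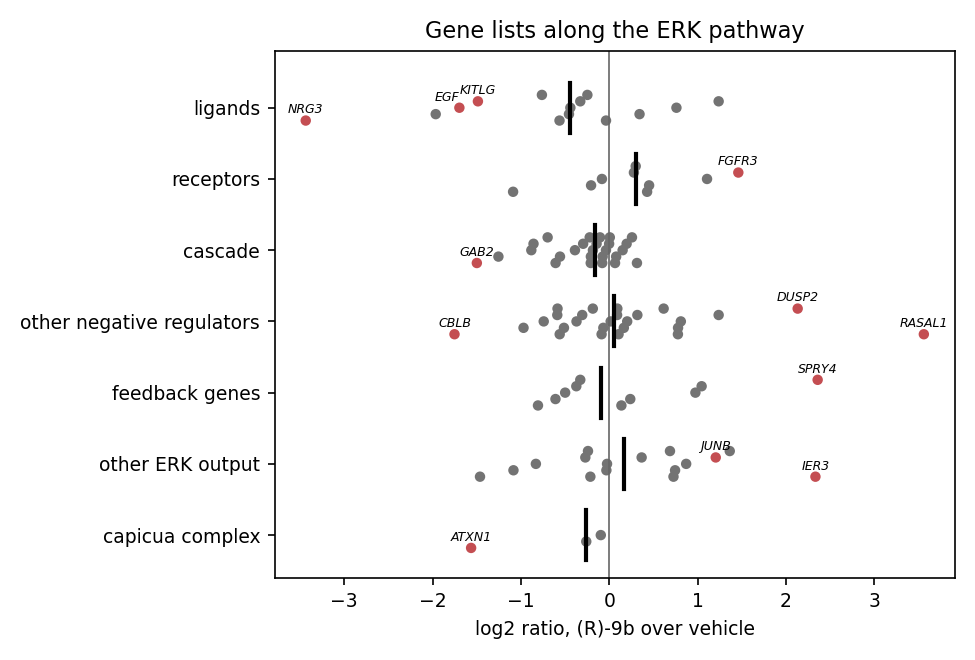
Each point is a gene past the minimum count, placed by its log2 ratio of (R)-9b to vehicle, with the lists in rows. Red named points are called beyond 2-fold, and vertical bars are list medians, which run from -0.45 for ligands to 0.30 for receptors. The feedback genes spread from -0.81 (DUSP5) to 2.36 (SPRY4).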

How the data were processed

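RNA was sequenced from C4-2B cells as paired-end reads of poly-A RNA, with 1 library each for vehicle and (R)-9b. The authors' processing notes list STAR 2.5.1a, featureCounts 1.4.6-p5, Salmon 0.8.2 and the build hg38, while the paper's methods name a later STAR. The deposited gene counts are whole numbers of uniquely aligned unambiguous reads without normalization. The deposited CPM are these counts divided by the library total. The estimated counts per transcript were also deposited by the authors, not normalized, and were rounded for intervals.

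The 200 repeated gene lines were dropped. Counts were scaled by TMM in edgeR 4.0.16 (R 4.3.3), and exact 95% intervals of the ratios were computed with scipy 1.17.1 for 23446 genes, those whose counts in both libraries summed to 10 or more. No replicate model was fitted with 1 library per condition. For medians over a list, a count below 3 was set to 3. Among counts of 1 to 20, 72.2% were even in vehicle and 70.3% in (R)-9b, and halved counts were tried, as for mates counted singly. Scripts were tested on simulated data.

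All 10 members are named, with genes called beyond 2-fold in each list, a fixed set of pathway genes, and genes overlapping a member. Some genes of the fixed set and of the marker lists are not reported here. The members and lists were chosen with earlier results of these data known. Protein sequences were not used here. Sequences are from RefSeq (GRCh38.p14) and coordinates from GENCODE 29 (GRCh38). Moderated log2 tables and the transcript CPM table were not used here.

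Alternatives were scaling by total counts, DESeq2 1.42.0 size factors, upper quartile or TMM without mitochondrial genes, the deposited CPM, transcript counts, halved counts, an added coefficient of variation of 0.1, minimum counts of 1 and 50, and calls by the point ratio.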

Additional observations from a re-analysis of the deposited data

How the results depend on the processing

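The log2 ratio of each of the 10 genes kept its sign under every alternative in which the gene passed the minimum count. DUSP6 and ETV4 did not pass a minimum of 50 counts. With transcript counts ETV5 fell below the minimum of 10. Its 3 and 0 estimated counts there went the other way, with an interval that reached up to a log2 ratio of 1.52. The transcript counts hold neither ETV4-201 nor ETV5-201, so they are not a full check of ETV4 or ETV5. SPRY4 ranged from 2.06 with transcript counts to 2.39 with the upper quartile, and it alone was called higher in every setting that uses intervals. By the point ratio 2 genes were called higher, SPRY4 and DUSP6. The log2 ratio of DUSP6 ranged from 0.16 with transcript counts to 1.08 with the upper quartile, and at 0.98 with total counts or the deposited CPM it was below 2-fold. The number with an interval above 0 was 1 (SPRY4) in place of 2 with transcript counts, halved counts, an added coefficient of variation of 0.1 and a minimum of 50 counts. Fewer counts or wider intervals by construction remove ETV4 there. The number with an interval below 0 was 3 (DUSP4, DUSP5 and SPRED2) in place of 5 with the added coefficient of variation. With the upper quartile SPRED1 joined SPRY4 and ETV4, making 3 above 0. SPRY2 also lost its interval below 0 with halved counts, transcript counts and the upper quartile. The median log2 ratio was -0.35 with a minimum of 50 counts, which leaves out DUSP6 and ETV4. The depth limits DUSP6, ETV4 and ETV5 most. No alternative measures the spread between cultures.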
